A study of Mus musculus with 6 samples.

Results

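Aqp4 encodes aquaporin 4, a water channel of the plasma membrane, and was followed here as 1 gene of the 4132 listed with an expression value in 6 mouse heart libraries. It was selected on its FPKM values in these libraries (sequenced fragments scaled by transcript length and library depth), because all 3 treated hearts lay above all 3 vehicle hearts. The Aqp4 values below are therefore a description, and no test is given for the gene itself. All 6 hearts came from male db/db mice (C57BLKS/J background), a strain that carries 2 defective copies of the leptin receptor gene and becomes obese and type 2 diabetic. Every mouse was injected into the abdominal cavity every other day from 10 weeks of age for 16 weeks, and the heart was taken at 26 weeks. The vehicle group (replicates 1, 2 and 3) received saline. The FGF1ΔHBS group (replicates 1, 2 and 3) received 0.5 mg/kg of recombinant human FGF1ΔHBS, a fibroblast growth factor 1 variant with its heparan sulfate binding residues replaced. No lean mouse heart was analysed here, so every difference is between treated and untreated diabetic hearts and none measures an effect of diabetes. Heart tissue was sequenced in bulk, so fewer cells of a type and less RNA per cell cannot be told apart. The paper does not say which part of the heart was used.

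Aquaporins are small membrane proteins that assemble as tetramers, and each subunit holds its own pore through which water moves along an osmotic gradient. Aquaporin 4 is best known from the end-feet of astrocytes around brain vessels, where the dystrophin-associated complex and its syntrophin subunit anchor it. It is also made in fast skeletal muscle fibres, in kidney collecting duct, in airway and stomach epithelium and, in the mouse, in cardiac muscle. Aquaporin 1 is the water channel of endothelium and red cells, and is the abundant aquaporin of the heart.

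The table gave Aqp4 (ENSMUSG00000024411) a locus at chr18:15389394-15403684 in GRCm38 coordinates, and the gene lies on the minus strand. GENCODE M21, an annotation of the same build, places the gene at chr18:15389496-15410982, so that its upstream end lies 7.298 kb beyond the locus of the table. Of its 11 annotated transcripts, 9 are protein coding, and 2 of these 9 lie within the locus of the table give or take 200 bases, the longer of which has 5 exons and 5054 bases. Transcripts that begin further upstream therefore lay only partly within the locus that the authors used, and 1 FPKM value per library stood for the whole gene. An antisense gene, ENSMUSG00000117541 at chr18:15403087-15430790 on the plus strand, overlaps 598 bases of the table's locus but shares 0 exon bases with Aqp4. The antisense gene was not analysed here.

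Aqp4 was a low transcript in vehicle hearts. The FPKM was 0.668 in vehicle replicate 1, 0.526 in vehicle replicate 2 and 0.698 in vehicle replicate 3, a mean of 0.631 ± 0.0921 (SD, n = 3). In FGF1ΔHBS hearts it was 2.26 in replicate 1, 3.33 in replicate 2 and 2.06 in replicate 3, a mean of 2.55 ± 0.683 (SD, n = 3). The vehicle hearts lay close together and the groups did not overlap. FGF1ΔHBS replicate 2 stood highest, and replicates 1 and 3 were near each other.

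**Figure D1:**
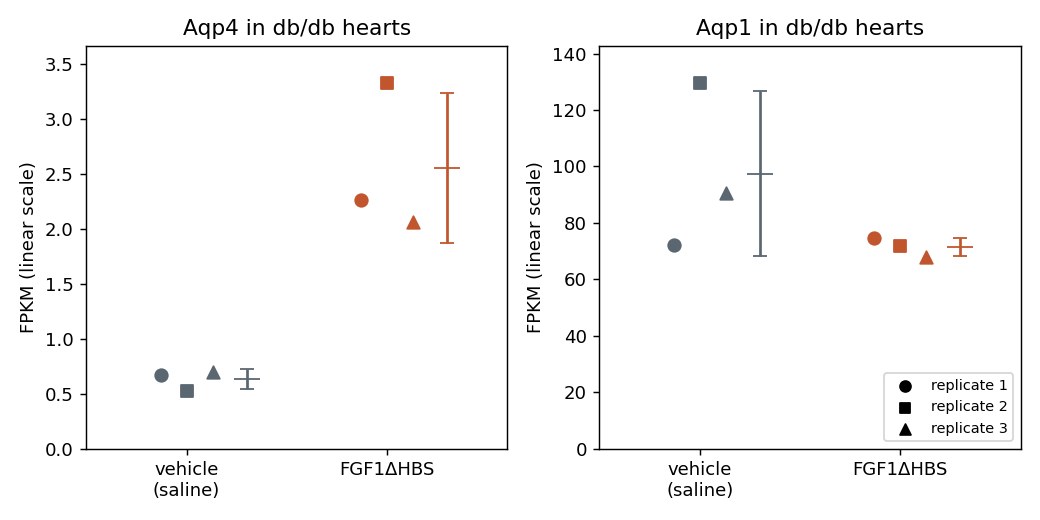
FPKM (linear axis from 0) of Aqp4 (left) and Aqp1 (right) in each heart by treatment, with a bar for the mean and SD of each group. The 3 FGF1ΔHBS hearts sit at 2.06 to 3.33 for Aqp4, all above the vehicle hearts at 0.526 to 0.698, whereas the Aqp1 points of the groups overlap and vehicle replicate 2 is the highest at 129.7.

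The mean FPKM of Aqp4 in FGF1ΔHBS hearts was 4.05 times that in vehicle hearts. The lowest treated heart was 2.95 times the highest vehicle heart, and the highest treated heart was 6.34 times the lowest vehicle heart. On the log2(FPKM + 1) scale, which compresses the difference of a gene this low, the means were 1.81 ± 0.27 (SD) and 0.70 ± 0.08 (SD), a difference of 1.11 with a standard error of 0.16. With a pseudocount of 0.1 the same difference was 1.84, and without a pseudocount the log2 of the ratio of means was 2.02. The coefficient of variation over mice was 26.8% in the treated group and 14.6% in the vehicle group.

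The number of sequenced fragments behind these values was estimated from 552 genes with a single annotated transcript. Their FPKM times transcript length in kb was searched within a preset range of 0.02 to 0.06. The median of the densest window of width 0.006, with 27 to 57 genes per library, was taken as 1 fragment. This gave an implied depth of 21100000 (FGF1ΔHBS replicate 3) to 25900000 (vehicle replicate 2) fragments. The preset range bounds the depths that could be found. If all Aqp4 fragments came from the transcript of 5054 bases, the values correspond to about 72, 69 and 83 fragments in the vehicle hearts and to 265, 371 and 220 in the FGF1ΔHBS hearts. Counting alone would then give an error of 10.98% to 12.05% in vehicle hearts and of 5.19% to 6.74% in treated hearts. If they came from the shorter coding transcript within the locus, of 1288 bases, the numbers would be 18, 18 and 21 against 68, 95 and 56, with counting errors of 21.8% to 23.9% and 10.3% to 13.4%. These errors cover sampling of fragments only and not differences between mice.

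To place Aqp4 among the other transcripts, the 2041 genes that averaged 1 FPKM or more over the 6 libraries were compared. Aqp4, with a mean of 0.631 FPKM in vehicle hearts, passed this filter only through the FGF1ΔHBS group, and 18 genes tested had a vehicle mean below 1 FPKM. Only 8.92% of the genes tested had a lower mean than Aqp4. By the log2 difference Aqp4 ranked 7 among the higher values and 20 by size in either direction. It was 1 of 2 genes whose lowest treated heart was at least 2 times the highest vehicle heart. In all, 218 genes (10.7%) had every FGF1ΔHBS heart above every vehicle heart, and 277 (13.6%) had every FGF1ΔHBS heart below.

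**Figure D2:**
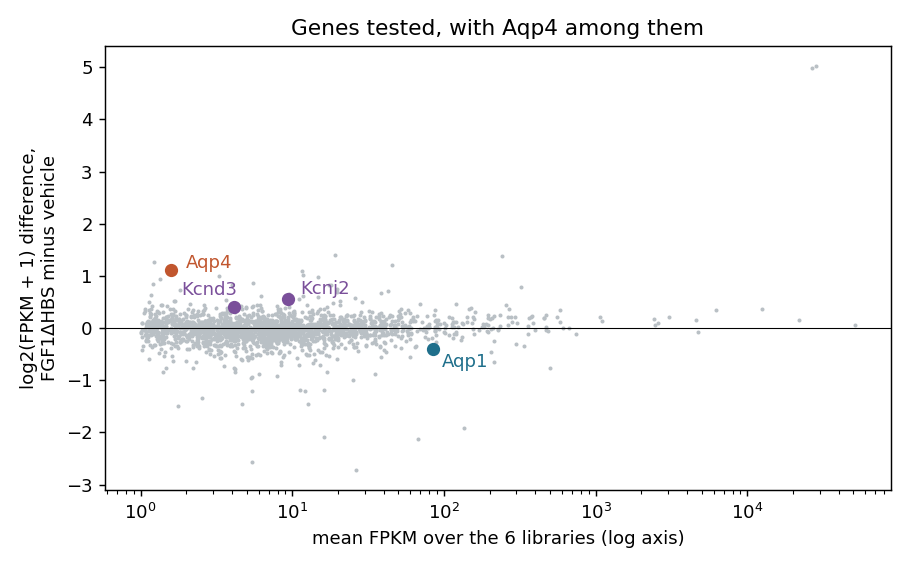
Difference in log2(FPKM + 1) between FGF1ΔHBS and vehicle hearts (vertical axis) against mean FPKM (horizontal log axis), 1 point per gene tested. Aqp4 lies at 1.11 among the low transcripts at the left, Kcnd3 and Kcnj2 at 0.41 and 0.56, and Aqp1 at -0.40; the pair of points near the top right are mt-Co2 and Gm28661, which are listed at 0 in vehicle replicate 2.

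Across genes, moderated statistics (limma, Benjamini-Hochberg adjustment) placed 2 of 2041 genes (0.0980%) under an adjusted p of 0.05. At an unadjusted p under 0.05 there were 349 genes (17.1%), of which 145 (7.10% of those tested) were higher and 204 (10.0%) were lower in FGF1ΔHBS hearts. When the libraries were rescaled to equal totals, the split was 22 higher of 268, and the median difference of all genes shifted from -0.02 to -0.23. Aqp4 was then at 0.98, which is 1.21 above that median. The equal totals rest on vehicle replicate 2, whose listed FPKM summed to 152340 where the other libraries summed to 215805 to 232837. In vehicle replicate 2 the mitochondrial gene mt-Co2 and the gene model Gm28661 are listed at 0.

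The other water channels of the table were Aqp1, Aqp3 and Aqp6, and in none of them did the groups separate. Aqp1 (ENSMUSG00000004655, chr6:55336432-55348555) was the abundant aquaporin, at 72.1, 129.7 and 90.6 FPKM in vehicle hearts and at 74.5, 72.0 and 68.0 FPKM in FGF1ΔHBS hearts. The means were 97.5 ± 29.4 and 71.5 ± 3.29 FPKM (SD, n = 3 each). The groups overlapped, and the log2(FPKM + 1) difference of -0.40 (SE 0.19) did not pass the test (limma adjusted p = 0.344, unadjusted p = 0.0746). A two-sided exact permutation test of the Aqp1 means gave p = 0.2, where 0.1 is the smallest p that 3 against 3 hearts allow. The Aqp1 difference was -0.18 without vehicle replicate 2, -0.59 without vehicle replicate 1 (limma unadjusted p = 0.00767) and -0.64 with totals made equal (limma unadjusted p = 0.00768), and its adjusted p was 0.141 to 0.567 over all other settings.

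Aqp6, an intracellular channel of kidney intercalated cells, was listed at 0, 0 and 0.0682 FPKM in vehicle hearts and at 0.0226, 0.0486 and 0.0250 in FGF1ΔHBS hearts. Aqp3, the basolateral water and glycerol channel of collecting duct and epidermis, was listed at 0, 0.0502 and 0 against 0, 0 and 0.151. Both were below the filter and were not tested. Of the other aquaporins, 0 of the 1 that was tested passed an adjusted p of 0.05, and the same held in the 16 other settings tried.

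Since FPKM is scaled by transcript length, the levels of Aqp4 and Aqp1 can be set beside each other. Per 100 FPKM of Aqp1, Aqp4 amounted to 0.926, 0.405 and 0.771 FPKM in the vehicle hearts and to 3.03, 4.63 and 3.03 FPKM in the FGF1ΔHBS hearts. Aqp4 was thus the smaller aquaporin transcript in every heart of both groups.

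Genes whose products anchor or work with aquaporin 4 were examined next. Of 21 genes of the dystrophin complex and the AQP4 anchoring machinery, 2 were in the table, and neither passed an adjusted p of 0.05. Dmd, which encodes dystrophin, the rod that links the actin skeleton to the membrane complex, was 20.7, 20.0 and 21.3 FPKM in vehicle hearts and 27.7, 23.8 and 23.3 FPKM in FGF1ΔHBS hearts, without overlap (log2 difference 0.26, SE 0.08, limma adjusted p = 0.183). This Dmd difference was 0.18 without vehicle replicate 2 and 0.03 with totals made equal. Agrn encodes agrin, a basement membrane proteoglycan that binds dystroglycan and is known for gathering aquaporin 4 at astrocyte end-feet. It was 18.4, 19.9 and 14.8 FPKM in vehicle hearts against 11.4, 13.4 and 12.8 FPKM in FGF1ΔHBS hearts, also without overlap but in the other direction (log2 difference -0.46, SE 0.12, limma adjusted p = 0.119). Both genes were under an unadjusted p of 0.05, 1 higher and 1 lower, beside 7.10% and 10.0% of all genes tested, and the median of the list was -0.10 beside -0.02 for all genes tested.

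Of 24 genes of cell volume and ion-coupled water movement, 3 were in the table and 0 passed the adjusted test, with a median of 0.19. Kcnj2, the inward rectifier potassium channel Kir2.1 that holds the resting potential of ventricular myocytes, was 7.30, 6.64 and 8.16 FPKM in vehicle hearts and 10.7, 13.4 and 9.97 FPKM in FGF1ΔHBS hearts. Every treated heart was above every vehicle heart (log2 difference 0.56, SE 0.12, limma adjusted p = 0.116). Atp1b1, the beta subunit of the sodium-potassium pump, was 106 ± 10.6 FPKM against 121 ± 8.40 FPKM (SD, n = 3 each, limma adjusted p = 0.349), and its difference of 0.19 became -0.05 with totals made equal. Ano6, a calcium-activated scramblase and ion channel, was 5.40 ± 1.36 FPKM against 4.50 ± 0.0862 FPKM (limma adjusted p = 0.584).

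The osmotic response that NFAT5 drives was represented by 4 of 14 genes, with a median of -0.04 and 0 past the adjusted test. Nfat5 itself, the transcription factor activated by hypertonicity, was 8.39, 7.45 and 5.93 FPKM in vehicle hearts and 5.86, 6.14 and 6.14 FPKM in FGF1ΔHBS hearts, with overlap (limma adjusted p = 0.400). Slc38a2, the amino acid transporter SNAT2 that accumulates osmolytes under hypertonic stress, was the gene of this list with the clearest separation. Its FPKM was 73.2, 71.6 and 68.4 in vehicle hearts against 55.1, 45.2 and 44.1 in FGF1ΔHBS hearts, all lower (log2 difference -0.56, SE 0.09, limma adjusted p = 0.110). The heat shock gene Hspa1b was 1.83 ± 0.0785 FPKM against 2.46 ± 1.21 FPKM, a spread set by FGF1ΔHBS replicate 1 at 3.84 FPKM (limma adjusted p = 0.642). S100a4, a calcium-binding protein, was 7.42 ± 2.57 FPKM against 8.17 ± 2.46 FPKM (limma adjusted p = 0.854).

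The table held 2 of 20 genes of vascular permeability and edema, and 0 of them passed at either threshold. Plvap, the diaphragm protein of fenestrated endothelium, was 5.85 ± 3.90 FPKM in vehicle hearts and 5.19 ± 3.21 FPKM in FGF1ΔHBS hearts (limma adjusted p = 0.915). Pdpn, podoplanin of lymphatic endothelium, was 1.47 ± 0.308 FPKM against 1.22 ± 0.0932 FPKM (limma adjusted p = 0.584).

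**Figure D3:**
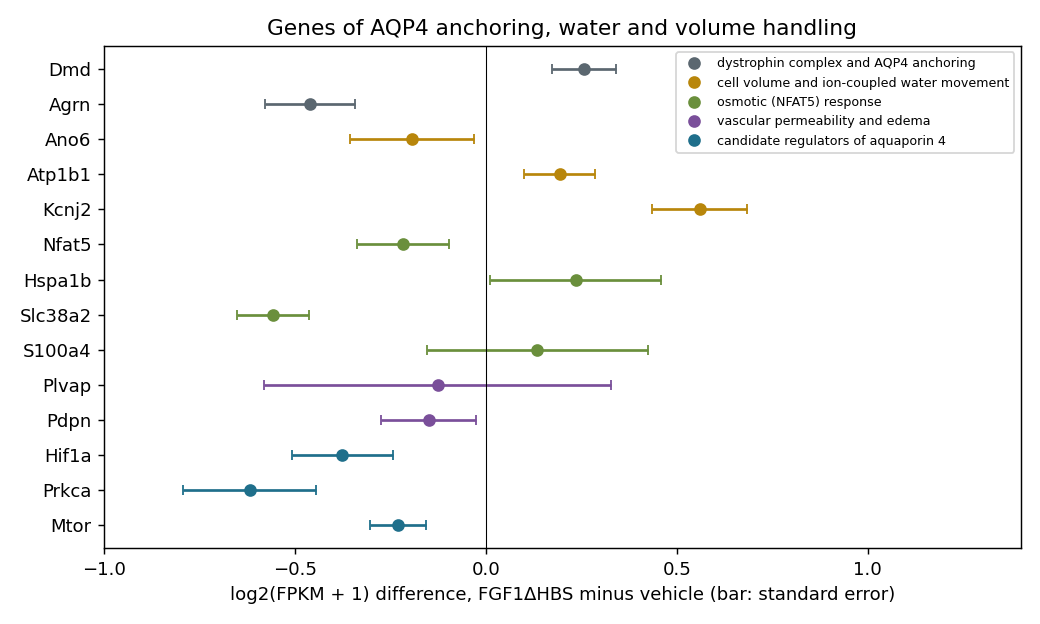
Difference in log2(FPKM + 1), FGF1ΔHBS minus vehicle, for the tested and reported genes of the lists of anchoring, volume, osmotic, permeability and candidate regulator genes, with the standard error as a bar. Kcnj2 is the highest at 0.56 and Prkca the lowest at -0.62, and none of the genes shown passed an adjusted p of 0.05.

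Of 18 candidate regulators of aquaporin 4, 4 were in the table, and 3 were under an unadjusted p of 0.05, all 3 lower in FGF1ΔHBS hearts, where 10.0% of all genes tested were. None of the 4 passed the adjusted test, and the median of the list was -0.30. Prkca encodes protein kinase C alpha, a member of a kinase family linked to phosphorylation of the channel. It was 5.54, 7.33 and 4.76 FPKM in vehicle hearts and 4.29, 2.79 and 3.32 FPKM in FGF1ΔHBS hearts (log2 difference -0.62, SE 0.17, limma adjusted p = 0.148). Hif1a, the oxygen-regulated subunit of the hypoxia factor, was 25.2, 19.6 and 18.6 FPKM against 15.0, 14.8 and 18.2 FPKM (log2 difference -0.38, SE 0.13, limma adjusted p = 0.217), and the difference was -0.25 without vehicle replicate 1. The kinase gene Mtor was 9.44, 9.85 and 9.51 FPKM against 8.34, 8.22 and 7.57 FPKM (log2 difference -0.23, SE 0.07, limma adjusted p = 0.173). The groups did not overlap in these 3 genes, all lower, as in 13.6% of the genes tested.

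The calls for these genes depended on vehicle replicate 3. Without it, 82 genes passed the adjusted test in place of 2, among them Kcnj2 (limma adjusted p = 0.0422, range over all other settings 0.0422 to 0.539), Agrn (0.0255, range 0.0255 to 0.346) and Slc38a2 (0.0323, range 0.0323 to 0.312). Slc38a2 (0.0332) and Prkca (0.0258, range 0.0258 to 0.380) were also past it when totals were made equal. The calls at an unadjusted p under 0.05 depended on other hearts. Hif1a was no longer called without vehicle replicate 1 or without FGF1ΔHBS replicate 1 or 2. Mtor was no longer called without vehicle replicate 2, without FGF1ΔHBS replicate 3 or with totals made equal. In each of these fits 2 candidate regulators were left.

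Cell composition was read from marker genes, since aquaporin 4 is made in several tissues. Of 17 cardiomyocyte markers, 4 were in the table and stood at the levels of a heart: Tnnt2, cardiac troponin T, was 4346 ± 176 FPKM in vehicle hearts and 4856 ± 334 FPKM in FGF1ΔHBS hearts (limma adjusted p = 0.505). Actc1, cardiac actin, was 4885 ± 573 FPKM against 4616 ± 621 FPKM (limma adjusted p = 0.821), and Tnnc1, troponin C of slow and cardiac muscle, was 2475 ± 283 FPKM against 2651 ± 229 FPKM (limma adjusted p = 0.724). The Z-disc gene Ldb3 was 330 ± 47.5 FPKM against 265 ± 10.8 FPKM, lower in every treated heart (limma adjusted p = 0.230). None of the 4 passed the adjusted test, the list's median was 0.01, and the summed cardiomyocyte markers ranged from 11171 to 13074 FPKM and from 11815 to 13440 FPKM.

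Listed markers of the other tissues that make aquaporin 4 lay at 0 to 1.31 FPKM, Mybpc2 and Pmp22 apart. Aqp4 itself was within that range in vehicle hearts, at 0.526 to 0.698 FPKM, so such levels do not show that these tissues were absent. Of 17 fast skeletal muscle markers, 5 were listed, with a summed level of 3.79 to 9.36 FPKM in vehicle hearts and of 2.87 to 6.81 FPKM in FGF1ΔHBS hearts. Most of that sum was Mybpc2, the fast isoform of myosin binding protein C, at 4.97 ± 3.27 FPKM against 3.74 ± 1.97 FPKM (limma adjusted p = 0.781), while Tnni2, Pvalb, Actn3 and Ryr1, named after their values were seen, lay at 0 to 1.31 FPKM in all 6 hearts. Kidney markers (2 of 20 listed, 1 of them Aqp3) summed to 0 to 0.175 FPKM and to 0.00928 to 0.995 FPKM. The kidney marker Slc12a1, the cotransporter of the thick ascending limb, was highest in FGF1ΔHBS replicate 3 at 0.844 FPKM. Lung and stomach epithelium (1 of 12 listed) was at 0 in every library but FGF1ΔHBS replicate 3, where Atp4a was at 0.0656 FPKM. Glia and peripheral nerve markers (3 of 15 listed) summed to 21.3 to 31.5 FPKM and to 23.4 to 27.6 FPKM, of which Pmp22, a myelin protein that fibroblasts also make, was 24.1 ± 5.63 and 24.8 ± 2.02 FPKM (limma adjusted p = 0.882).

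For the listed fibroblast (1 gene), macrophage (2 genes) and adipocyte (1 gene) markers the groups did not overlap, as in 10.7% of all genes tested for higher and 13.6% for lower values. Dcn, decorin, the 1 listed marker of 10 for fibroblasts, was 284, 288 and 154 FPKM in vehicle hearts and 409, 368 and 431 FPKM in FGF1ΔHBS hearts, higher in every treated heart (log2 difference 0.79, SE 0.23, limma adjusted p = 0.154). Without vehicle replicate 3 the Dcn difference was 0.49 (limma adjusted p = 0.0366, range over settings 0.0366 to 0.362). Macrophage markers (2 of 10 listed) summed to 5.23 to 12.6 FPKM in vehicle hearts and to 3.41 to 4.26 FPKM in FGF1ΔHBS hearts. The endotoxin co-receptor gene Cd14 was 5.64 ± 3.06 FPKM against 2.66 ± 0.338 FPKM (limma adjusted p = 0.230) and the leukocyte phosphatase gene Ptprc was 2.14 ± 1.13 FPKM against 1.08 ± 0.116 FPKM (limma adjusted p = 0.298). Both macrophage markers were lower in every treated heart, and vehicle replicate 3 was the highest heart for each, at 9.17 and 3.43 FPKM. The log2 difference of Cd14 was -0.77, and -0.42 without vehicle replicate 3. With totals made equal Cd14 was past the adjusted test (limma adjusted p = 0.00378, range over settings 0.00378 to 0.455). The adipocyte marker Adipoq, adiponectin, named after its values were seen and 1 of 11 in the table, was listed at 0, 0.217 and 0 FPKM in vehicle hearts against 1.21, 0.246 and 0.648 FPKM in FGF1ΔHBS hearts. The part of these cell types in the Aqp4 values was not tested.

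Endothelial markers (3 of 12 listed) summed to 51.6 to 83.2 FPKM and to 50.0 to 71.0 FPKM, with a median difference of -0.32. Esam, an endothelial adhesion molecule, was 34.3 ± 3.74 FPKM against 27.0 ± 1.96 FPKM, lower in every treated heart (limma adjusted p = 0.154, and 0.0397 without vehicle replicate 3, range over settings 0.0397 to 0.424). The receptor gene Tie1 was 18.7 ± 6.21 FPKM against 14.4 ± 2.62 FPKM (limma adjusted p = 0.569) and the sialomucin gene Emcn was 18.9 ± 7.66 FPKM against 19.5 ± 6.06 FPKM (limma adjusted p = 0.925). The red cell marker Hbb-bt, a beta globin (1 of 10 listed), was 264 ± 115 FPKM against 162 ± 42.8 FPKM, with overlap (limma adjusted p = 0.343, and 0.0149 with totals made equal, range over settings 0.0149 to 0.611). Aquaporin 1 is known from both cell types. Aqp1, Hbb-bt and Tie1 were each highest in vehicle replicate 2. Esam was nearly level in vehicle replicates 1 and 2 (36.3 and 36.5 FPKM). Emcn was highest in FGF1ΔHBS replicate 3, at 25.6 FPKM against 23.6 FPKM in vehicle replicate 2. The part of these cell types in the Aqp1 values was not tested.

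Atrial markers varied widely between hearts. Of 9 atrial markers 2 were listed, and their sum was 62.2 to 458 FPKM in vehicle hearts and 22.7 to 75.5 FPKM in FGF1ΔHBS hearts. Nppa, atrial natriuretic peptide, which failing ventricle also makes, was 170, 431 and 62.2 FPKM against 75.4, 22.7 and 47.4 FPKM (log2 difference -1.91, SE 0.70, limma adjusted p = 0.231), and the difference was -1.23 without vehicle replicate 2. Sln, sarcolipin, the calcium pump inhibitor of atrial muscle, was listed at 0, 27.4 and 0 FPKM against 0.127, 0 and 0.240 FPKM. FGF1ΔHBS replicate 2, the heart with the most Aqp4, had the least Nppa, and vehicle replicate 2, with the least Aqp4, had the most. The order was not inverse throughout: FGF1ΔHBS replicate 1 had more of both than FGF1ΔHBS replicate 3 (Aqp4 2.26 against 2.06 FPKM). Pearson's r of log2(FPKM + 1) between Nppa and Aqp4 was -0.81 over the 6 libraries, where 77 genes lay below -0.9. Nppa was past the adjusted test without vehicle replicate 3 (limma adjusted p = 0.0389, range over settings 1.2e-16 with totals made equal to 0.532), and Sln was past it with totals made equal (2.9e-11, range up to 0.778). The limma fit draws a gene's variance toward that of genes of like level. The p-values with totals made equal therefore do not measure the spread of Nppa or Sln alone. A two-sided exact permutation test of the Nppa means as reported gave p = 0.2, and its groups overlapped. The 6 ventricular markers of the list were not analysed here, and the part of atrial tissue in the Aqp4 values was not tested.

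Genes with a pattern like that of Aqp4 were ranked by Pearson's r of log2(FPKM + 1) over the 6 libraries, as a description. The points share the 2 groups and the library depths, so a gene that separates the groups can reach a high r by that alone. Not every such gene did: Dcn had an r of 0.69 and Ptprc of -0.58. In all, 58 other genes had an r above 0.9 and 77 below -0.9. The r over the deviations of the 6 hearts from their group means is given beside it, for genes already chosen on the same 6 values. Ranking by the deviations alone named 0 of the same 10 genes.

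**Figure D4:**
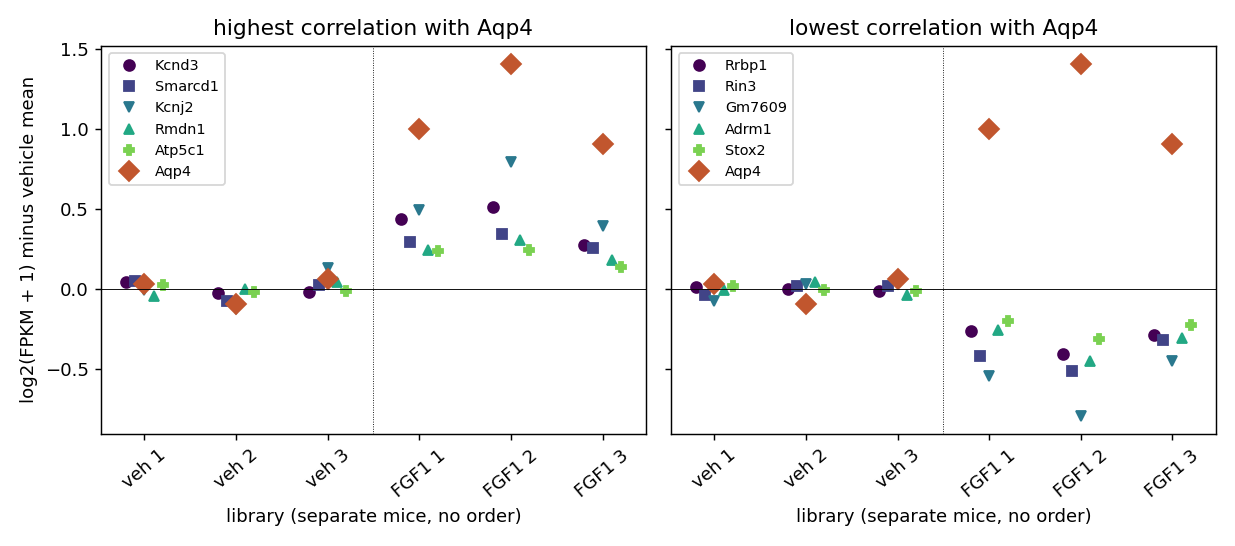
Log2(FPKM + 1) of each library minus the mean of the vehicle libraries, for the 5 genes with the highest (left) and the 5 with the lowest (right) correlation with Aqp4, beside Aqp4 itself (diamonds). The 5 genes of each panel were picked for this pattern, and their points lie nearer to the vehicle mean than those of Aqp4 in the FGF1ΔHBS hearts.

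The highest r belonged to Kcnd3, which encodes Kv4.3, a subunit of the transient outward potassium current. Kcnd3 was 3.51, 3.30 and 3.31 FPKM in vehicle hearts and 4.92, 5.25 and 4.30 FPKM in FGF1ΔHBS hearts (r = 0.98 over libraries and 0.81 over deviations). Smarcd1, a subunit of the SWI/SNF chromatin remodelling complex, was 7.43, 6.70 and 7.26 FPKM against 8.99, 9.34 and 8.71 FPKM (r = 0.98 and 0.73). Kcnj2, named above among the volume genes, had r = 0.98 over libraries and 0.95 over deviations.

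Rmdn1, a microtubule-associated protein gene, was 22.6 to 24.0 FPKM in vehicle hearts and 26.5 to 29.1 FPKM in FGF1ΔHBS hearts (r = 0.98 and 0.77). Atp5c1, the gamma subunit of mitochondrial ATP synthase, was the most abundant, at 981 to 1011 FPKM against 1095 to 1176 FPKM (r = 0.97 and 0.66). With totals made equal the log2 differences of Kcnd3, Smarcd1, Kcnj2, Rmdn1 and Atp5c1 were 0.22, 0.09, 0.34, 0.01 and -0.03 in place of 0.41, 0.30, 0.56, 0.24 and 0.21, and that of Atp5c1 was -0.29 with quantile normalization. The log2 differences of the 5 were 0.21 to 0.56, smaller than the 1.11 of Aqp4. The 2 potassium channel genes of the 5 both act in cardiac repolarisation.

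At the other end stood Rrbp1, a ribosome-binding protein of the endoplasmic reticulum, at 21.3, 21.2 and 20.9 FPKM in vehicle hearts and 17.5, 15.7 and 17.2 FPKM in FGF1ΔHBS hearts (r = -0.99 over libraries and -0.91 over deviations). Rin3, a guanine nucleotide exchange factor for Rab5-type GTPases, was 3.72 to 3.92 FPKM against 2.39 to 2.89 FPKM (r = -0.99 and -0.88). Adrm1, the ubiquitin receptor of the proteasome, was 33.2 to 35.2 FPKM against 24.7 to 28.3 FPKM (r = -0.99 and -0.92). The gene model Gm7609 was 1.45 to 1.64 FPKM against 0.482 to 0.877 FPKM (r = -0.99 and -0.93), and Stox2, a storkhead-box gene, was 2.07 to 2.14 FPKM against 1.49 to 1.69 FPKM (r = -0.99 and -0.84).

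The other genes of the table near Aqp4 on chromosome 18 did not show its separation. Within 1 Mb there were 3, Kctd1, Taf4b and Psma8. Kctd1 (chr18:14968685-15151446), a transcriptional repressor with a BTB domain, was 3.06, 2.56 and 2.24 FPKM in vehicle hearts and 2.53, 2.42 and 2.58 FPKM in FGF1ΔHBS hearts (log2 difference -0.04, SE 0.11, limma adjusted p = 0.898). Taf4b (chr18:14783245-14900359), a TFIID subunit, was 0.718, 0.875 and 0.862 FPKM against 0.964, 0.841 and 0.855 FPKM. Psma8 (chr18:14706151-14762299), a testis proteasome subunit, was 0.318, 0.372 and 0.169 FPKM against 0.395, 0.311 and 0.292 FPKM, and both were below the filter.

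Base composition was checked because GC content moved with the difference across all genes (Spearman's rho -0.22 across genes, which are not independent replicates). GC content was taken from the longest annotated transcript of each gene. For Aqp4 this transcript, of 5054 bases, had a GC content of 41.4%, lower than that of all but 10.4% of the genes tested. Its other transcripts were not used for this check. Of 10 equal bins of GC content, Aqp4 fell in bin 2, near its lower edge, so most genes of the bin had a higher GC content. The 204 genes of this bin, Aqp4 included, had a median log2 difference of 0.02 and a highest value of 1.11, which was that of Aqp4. After a correction for GC content the Aqp4 difference was 1.08.

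**Figure D5:**
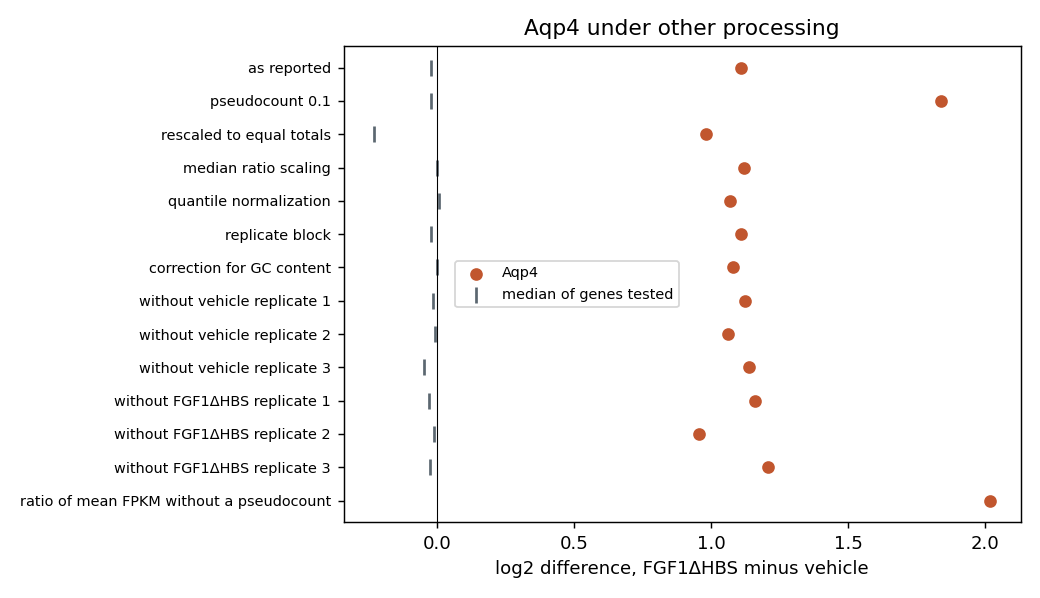
Log2 difference of Aqp4 between FGF1ΔHBS and vehicle hearts (points) and the median of all genes tested (vertical ticks) under each way of processing the values. Aqp4 stays between 0.96 and 1.21 under all scalings and with any 1 heart left out, at 1.84 with a pseudocount of 0.1 and at 2.02 for the plain ratio of mean FPKM. The gene was selected on these values, so the points are a description.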

How the data were processed

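Poly(A) RNA of heart tissue from 6 db/db mice (3 per group, from the labels' treatment and titles) was sequenced. The authors deposited FPKM per gene, 1 column per mouse, with 4132 genes used here, a part of a transcriptome. The submitters' notes name Bowtie 0.12.2, HISAT2 2.0 and StringTie 1.3.0 and a build called mm8, whereas 4109 of 4111 gene IDs found in GENCODE M21 overlap its GRCm38 loci. The labels give paired-end and the methods single-end reads, and strand is not stated. The labels and the methods also name different sequencer models. The extraction text of the labels mentions adipose tissue, although the samples are given as hearts.

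FPKM was analysed as log2(FPKM + 1) with limma 3.58.1 (R 4.3.3, lmFit, eBayes with trend, Benjamini-Hochberg) in the 2041 genes averaging 1 FPKM or more over all libraries, tested on simulated data. Aqp4 got no test. Named genes were Aqp4, all aquaporins, the 5 highest and 5 lowest correlations with Aqp4, per list the 4 tested members with the highest mean and any past adjusted p 0.05, and table genes within 1 Mb. For 1 candidate regulator, counted in its list, values are not reported here. The members and lists were chosen with earlier results of these data known. Whether replicates were littermates or handled together is not stated, so p-values rest on the spread between these mice only. The limma fit draws each gene's variance toward that of genes of like level. Its p-values therefore do not measure the spread of a single gene alone, also where totals were made equal. Deviations of same-numbered hearts from their group means correlated at -0.0078, -0.1591 and -0.2173, and those of other pairs at -0.1003 to 0.2661. Deviations within a group of 3 sum to 0, so these values cannot decide whether same-numbered hearts were handled together. Alternatives were a pseudocount of 0.1, no filter or 5 FPKM, equal totals (TPM), median ratio and quantile scaling, no trend, robust eBayes, the replicate block, each heart left out and, chosen after seeing the data, a correction for GC content.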

Additional observations from a re-analysis of the deposited data

How the results depend on the processing

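The Aqp4 log2 difference of 1.11 stayed within the spread between hearts under 11 of 13 alternatives (0.96 without FGF1ΔHBS replicate 2 to 1.21 without FGF1ΔHBS replicate 3) and moved to 1.84 with a pseudocount of 0.1 and to 2.02 as the log2 of the ratio of mean FPKM, since a pseudocount of 1 exceeds its vehicle level. Aqp4 was selected on these values because its groups did not overlap, so leaving out a heart could not reverse its difference. The replicate block, counted among the 11, could not move the difference, since both groups hold the same replicate numbers. The 11 are therefore a description and no support for the difference. With a minimum of 5 FPKM Aqp4 was not among the genes. The count of genes past the adjusted p, 2 as reported, was 4 with a pseudocount of 0.1, 65 with equal totals, 5 with robust eBayes, 1 each with median ratio scaling, quantile normalization, no trend and the correction for GC content, and 0 without a filter (488 at an unadjusted p under 0.05). With the replicate block it was 0 (269 at an unadjusted p under 0.05), and the block changed no aquaporin call. With each heart left out it ranged from 0 to 82: 7, 0 and 82 without vehicle replicates 1, 2 and 3, and 1, 0 and 1 without FGF1ΔHBS replicates 1, 2 and 3. The count at an unadjusted p under 0.05, 349 as reported, was 231 to 494 over the same fits, 270 and 231 where the adjusted count was 0. The causes were not tested. Of the 10 genes named by correlation, 8 were shared with a pseudocount of 0.1, 5 with quantile normalization, 4 with median ratio scaling, 2 to 6 with a heart left out, and 0 with equal totals, with Spearman's rho or by deviations alone. At about 18 to 83 fragments per vehicle heart, depth limits how finely hearts of 1 group can be told apart.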
